A study of Mus musculus with 8 samples.

Results

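The genes described here are 6 genes by which islet alpha and delta cells are commonly recognised, apart from the hormones those cells make: Irx1, Irx2, Ttr and Gc for alpha cells, and Hhex and Rbp4 for delta cells. They were picked by symbol, and all 6 were found among the 16333 genes of the authors' deposited tables. RNA of isolated mouse islets had been sequenced from 2 NFATc2βKO mice (KO) and 2 wild-type mice (WT), labelled Agouti/C57BL6 in both genotypes. Islets of each mouse were divided: some were held 2 h in the cytokines IFNγ (50 ng/mL), IL1β (5 ng/mL) and TNFα (10 ng/mL) together with 11 mM glucose, and the others were left untreated, after all had been cultured overnight in 5.5 mM glucose. The 4 groups are therefore KO with cytokines, KO untreated, WT with cytokines and WT untreated, with 2 libraries each. Both genotypes had been given tamoxifen. In KO mice the labels place the deletion of Nfatc2, a calcium-dependent transcription factor, in insulin-expressing cells of the adult animal. Alpha and delta cells are thus not the labelled target of the deletion. Which cells of the islet the 6 transcripts came from was not tested. The labels give no age. Cytokines and raised glucose were given together and cannot be told apart.

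Alpha cells secrete glucagon and delta cells secrete somatostatin, and both are minor partners of the insulin-secreting beta cell in the mouse islet. Irx1 and Irx2 are Iroquois homeobox transcription factors whose genes lie on the same chromosome and which are expressed in alpha cells. Ttr encodes transthyretin, a carrier of thyroid hormone that also binds retinol-binding protein, and Gc encodes the vitamin D-binding protein; both are best known as plasma proteins made by the liver and are also products of alpha cells. Hhex is a homeobox transcription factor needed for delta cells in mice, and Rbp4 encodes the plasma carrier of retinol, which delta cells express. Since the samples were whole islets, fewer cells of a type and less RNA per cell cannot be told apart in any value below.

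Normalized counts are reads divided by a size factor for each library. The deposited tables give them as means over groups, and the reads of the 2 libraries behind each mean were recovered for 16317 genes, all 6 among them. Total recovered reads ran between 14562368 and 26861854 per library; the 16 genes not recovered, the insulin genes and Gcg among them, are not in these totals, and shares of reads below are of them. In every group 1 library held 0 to 37 reads of 4 Y-linked genes and the other 7516 to 12355, so 1 library of each group is called female and 1 male below; sex is not given in the labels. Nfatc2 had 987 and 899 normalized counts in KO islets with cytokines, female before male, against 1646 and 1144 in WT islets with cytokines. Untreated, it had 1167 and 842 in KO and 1557 and 1270 in WT islets, and neither difference passed the authors' test (FDR 0.474 and 0.903). The arginine transporter Slc7a2, another marker of alpha cells, was present in all libraries, as was the delta cell hormone Sst.

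The 6 genes spanned a wide range of levels. Scaled for exon length and library size (RPKM), median levels over the 8 libraries were 325 for Ttr, 83.9 for Rbp4, 23.7 for Gc, 5.09 for Irx2, 3.09 for Irx1 and 2.53 for Hhex. The carriers thus stood above the transcription factors. The RPKM ranges of Ttr (147 to 463), Rbp4 (61.3 to 113) and Gc (13.7 to 43.2) did not overlap, whereas those of Irx2 (2.63 to 8.56), Irx1 (1.42 to 5.76) and Hhex (1.85 to 3.84) did. Liver genes were near absent beside these carriers: of 10 hepatocyte markers 3 were in the tables, and their summed share was at most 0.00173% of the reads of any library. None of 6 adipocyte markers was in the tables, which held no gene with an overall mean below 23.2 normalized counts. Adipocytes also express Rbp4, and their part in its values was not tested.

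**Figure D1:**
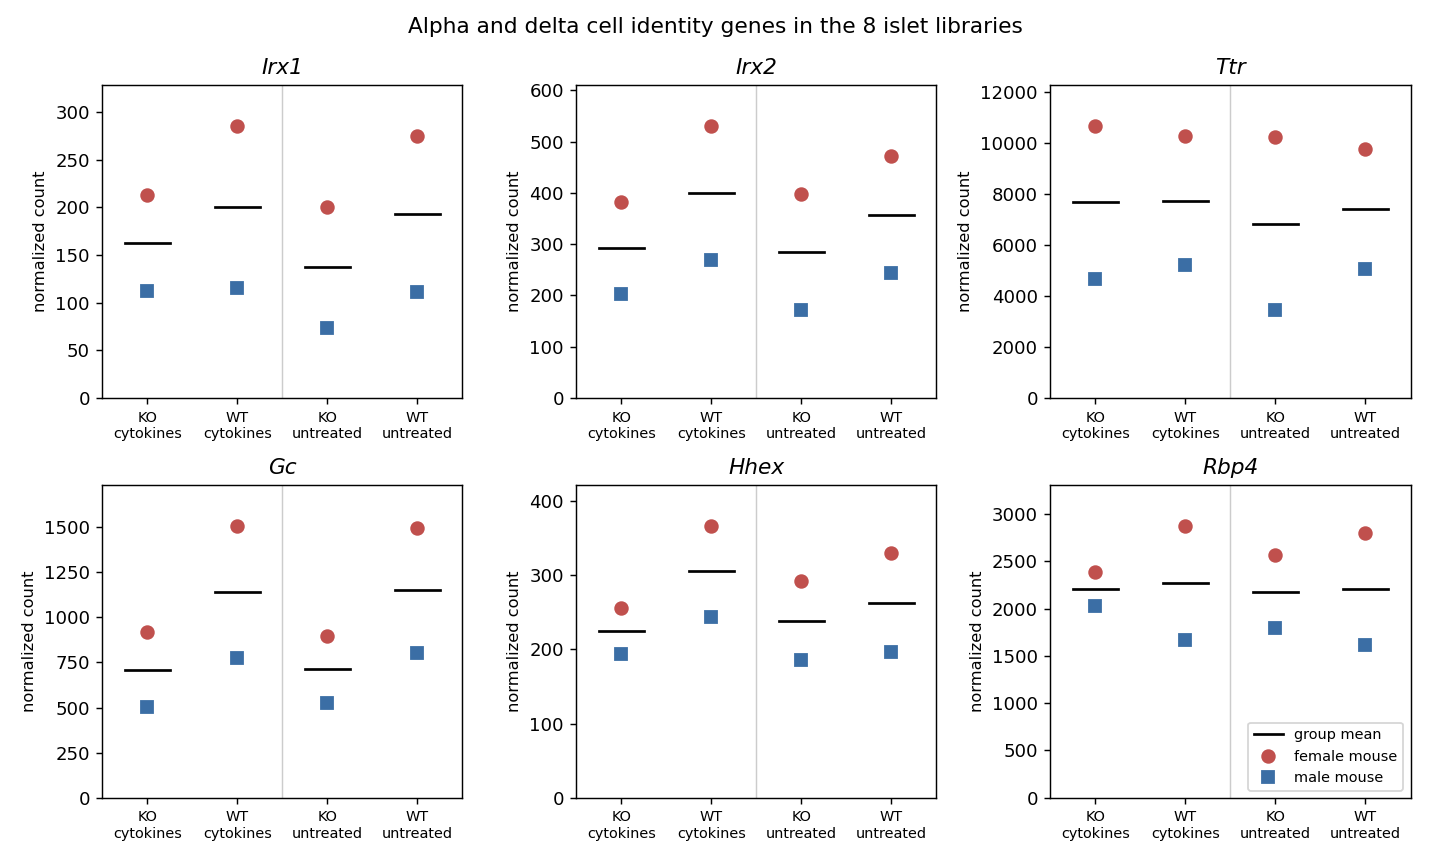
Normalized count (vertical axis, starting at 0) of each of the 6 genes in every library; circles are the female and squares the male library of each group, and bars are the group means. Each female library lies above each male library for all 6 genes, and Gc is lower in KO than in WT for each sex and treatment.

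Gc, on chromosome 5 (89417522 to 89457898, minus strand, GRCm38), had the smallest p of the 6 genes in both genotype comparisons. With cytokines it had 919 and 503 normalized counts in the female and male KO libraries, against 1508 and 776 in the WT libraries. Untreated, it had 897 and 524 in KO and 1496 and 805 in WT libraries. The groups overlapped when the sexes were pooled, because both female KO libraries lay above both male WT libraries, yet within each sex the KO library was the lower under both treatments. Group means were 711 ± 294 in KO and 1142 ± 518 in WT islets with cytokines, and 711 ± 264 in KO and 1150.1 ± 489 in WT islets untreated (SD, n = 2 each). The KO over WT ratio was 0.600 to 0.652 in the 4 pairs of libraries matched by sex and treatment, which come from 2 mice of each genotype. Gc was the only 1 of the 6 genes under 2/3 of WT in all 4 pairs, a property of 0.545% of all genes (89 of 16317).

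The authors' test gave Gc a log2 fold change of -0.69 with cytokines (SE 0.42, p = 0.0990, FDR above 0.99) and -0.69 untreated (SE 0.42, p = 0.0945, FDR above 0.99). Whether the model behind that test took account of sex or mouse is not recorded. In the authors' deposited table no member was called in either genotype comparison (0 of 6, at an FDR below 0.05), where 0.998% of all genes were called with cytokines and 0.41% untreated. No member had an unadjusted p below 0.05 there. When limma was fitted to the recovered reads with sex as the replicate block, Gc fell in KO islets by 0.67 on the log2 scale with cytokines (SE 0.081, adjusted p 0.00976) and by 0.67 untreated (SE 0.081, adjusted p 0.0129). It was the 1 member of 6 called, where 1.29% of all genes were called lower with cytokines and 0.582% untreated. That fit uses each mouse under both treatments, so its p-values are too small. Restricted to the 4 libraries of a comparison, where each mouse enters once, Gc remained called (adjusted p 0.00296 with cytokines and 0.00383 untreated, against 1.75% and 1.34% of genes called lower). With 1 residual degree of freedom per gene, this last fit rests on the spread shared across genes. Without the block the same limma fit gave adjusted p 0.900 with cytokines and 0.967 untreated. Leaving out 1 library of the blocked fit ended the call with cytokines when either KO cytokine library was the one missing (adjusted p 0.0649 and 0.0621), and untreated when any of the 4 untreated libraries was missing (adjusted p 0.0576 to 0.188), while the log2 fold change stayed between -0.61 and -0.74.

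The promoter windows of Gc and Irx2 are given because the 2 genes followed each other closely over the libraries (r = 0.94) while Gc alone was called, and because the deleted factor belongs to a family that binds a short DNA core, GGAAA. RefSeq windows on GRCm38.p6, from 250 bases before to 50 bases after the start site, were found for 4 of the 6 genes (Gc, Irx2, Hhex and Rbp4). The sequences are read 5′ to 3′ on the strand of the gene, at chr5:89457849-89458148 (minus strand) and chr13:72628570-72628869 (plus strand), and capitals mark GGAAA or its reverse complement TTTCC.
Gc: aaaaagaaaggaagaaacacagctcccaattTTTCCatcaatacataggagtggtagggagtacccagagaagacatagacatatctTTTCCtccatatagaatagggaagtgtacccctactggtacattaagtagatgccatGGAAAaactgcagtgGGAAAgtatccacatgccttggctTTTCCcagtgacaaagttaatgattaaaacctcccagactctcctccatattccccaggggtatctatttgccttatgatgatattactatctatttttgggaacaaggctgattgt
Irx2: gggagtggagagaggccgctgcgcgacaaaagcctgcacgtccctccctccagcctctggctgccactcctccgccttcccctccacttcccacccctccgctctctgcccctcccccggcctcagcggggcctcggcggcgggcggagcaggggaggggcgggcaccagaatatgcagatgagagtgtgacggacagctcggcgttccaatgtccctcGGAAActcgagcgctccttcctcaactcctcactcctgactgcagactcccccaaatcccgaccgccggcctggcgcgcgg

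The Gc window held the core 5 times, on both strands, and the Irx2 window once. At least 1 copy stood in 61.3% of 32851 mouse windows of the same length, and at least 5 copies in 0.728%. The threshold of 5 is the count of the Gc window itself, and Gc was picked because it was called. The base composition of the windows was not allowed for. The 0.728% is therefore a description and no test of a link between Gc and the deleted factor. The window of Hhex held none, and of the 2 windows of Rbp4 one held 2 copies and the other none. The Gc window also held 1 copy of GTTAAT, the half-site of HNF1 factors, at position -52 from the start site; 7.1% of all windows held it, and no other window of the 4 genes did. All motifs were searched on both strands. The motif CCAAT was found in the Gc, Irx2 and Hhex windows and in 1 of the 2 Rbp4 windows, against 37.4% of all windows. TATAAA was found only in the second Rbp4 window, against 13.6% of all. The motifs did not overlap each other. A match describes letters and is not a site shown to be bound.

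**Figure D2:**
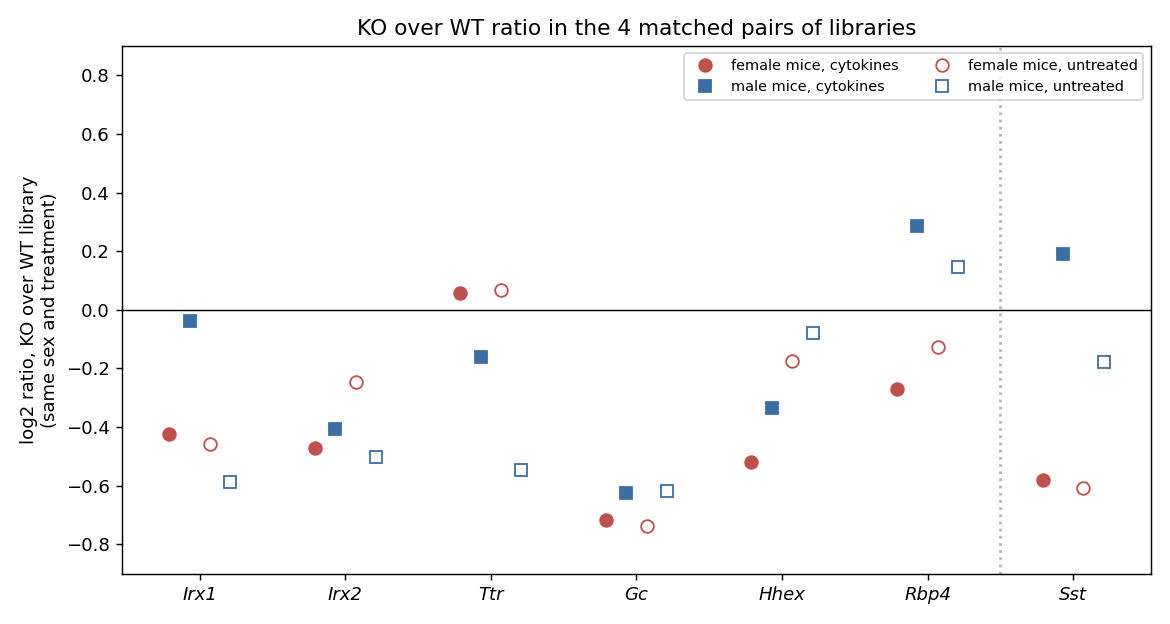
Log2 ratio of normalized counts, KO over WT library (vertical axis), in the 4 pairs matched by sex and treatment; filled symbols are cytokine and open symbols untreated libraries. The points of Gc lie together between -0.74 and -0.62, those of Irx1, Irx2 and Hhex lie below 0, and those of Ttr and Rbp4 fall on both sides, as do those of Sst, the delta cell hormone.

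Irx1 and Irx2, on chromosome 13 (71957921 to 71963723, minus strand, and 72628820 to 72634198, plus strand), had like patterns over the libraries. Irx1 had 213 and 112 normalized counts in the female and male KO libraries with cytokines, against 286 and 115 in the WT libraries, and untreated it had 200.3 and 73.9 in KO against 275 and 111 in WT libraries. Irx2 had 383 and 204 in KO libraries with cytokines against 531 and 269.9 in WT, and untreated 398 and 172 in KO against 472 and 243 in WT libraries. Both were lower in KO in all 4 matched pairs, by ratios of 0.665 to 0.975 for Irx1 and 0.706 to 0.843 for Irx2, but neither genotype difference passed a test. The authors' deposited table gave log2 fold changes of -0.30 (SE 0.61) and -0.49 (SE 0.61) for Irx1, with cytokines and untreated, and limma with the block gave adjusted p 0.574 and 0.177. For Irx2 they were -0.45 (SE 0.50) and -0.33 (SE 0.50), with adjusted p 0.0918 and 0.179 in limma with the block. The correlation of Irx1 with Irx2 over the 8 libraries was the highest of the 15 pairs among the 6 genes (r = 0.98; the lowest was 0.73, between Gc and Rbp4), and these 8 points come from 4 mice. Irx3, Irx4, Irx5 and Irx6, the other Iroquois genes, were not among the genes analysed here.

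Ttr, on chromosome 18, had the highest RPKM of the 6 and the largest standard errors in the authors' test. It had 10678 and 4678 normalized counts in the female and male KO libraries with cytokines, against 10267 and 5226 in WT, and untreated 10226 and 3463 in KO against 9764 and 5057 in WT libraries. The female KO library was slightly above the female WT library under both treatments and the male KO library below the male WT library. The genotype log2 fold changes in the authors' deposited table were -0.01 with cytokines and -0.11 untreated, each with an SE of 0.79 (95% intervals of the fold 0.338 to 2.91 and 0.315 to 2.71), so a difference of several fold in either direction was not detectable by that test. With the block, limma gave -0.05 (SE 0.14, adjusted p 0.925) and -0.24 (SE 0.14, adjusted p 0.521).

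Of the delta cell genes, both on chromosome 19, Hhex (37434810 to 37440731, plus strand) had 256 and 194 normalized counts in the female and male KO libraries with cytokines, against 367 and 244 in WT. Untreated, it had 292 and 186 in KO against 329.7 and 196 in WT libraries. Hhex was lower in KO in all 4 matched pairs, with ratios of 0.698 and 0.793 with cytokines and 0.886 and 0.947 untreated, and was not called (limma with the block, adjusted p 0.124 with cytokines and 0.744 untreated). Rbp4 (38116629 to 38125281, minus strand) had 2386 and 2032 in KO libraries with cytokines against 2878 and 1668 in WT, and untreated 2561 and 1791 in KO against 2796 and 1618 in WT libraries. Here the female KO library was below and the male KO library above its WT counterpart, and the group means lay close together under both treatments. The authors' deposited log2 fold changes of Rbp4 were -0.04 with cytokines and -0.02 untreated (SE 0.31 each); limma on the recovered reads put both at 0.01, so the sign is not settled.

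Across the 6 genes, all deposited genotype fold changes were below 0 under both treatments, which share their mice. Their median log2 fold change was -0.37 with cytokines and -0.23 untreated, against a median near 0 over all genes. The longer lists of the same cells, members included, were more mixed. Of 13 alpha cell genes 8 were below 0 with cytokines and 9 untreated (medians -0.085 and -0.11). Of 6 measured delta cell genes 5 were below 0 with cytokines and 3 untreated (medians -0.25 and 0.095). In 4 of the 6 (Irx1, Irx2, Gc and Hhex) the KO library was the lower in all 4 matched pairs, as in 15% of all genes. The standard errors of the 6 genes in the authors' untreated genotype comparison were wide for their level: they stood between the 89.2 and 98.8 percentile of genes of like mean, for example 0.79 for Ttr where the median of 1052 such genes was 0.13.

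**Figure D3:**
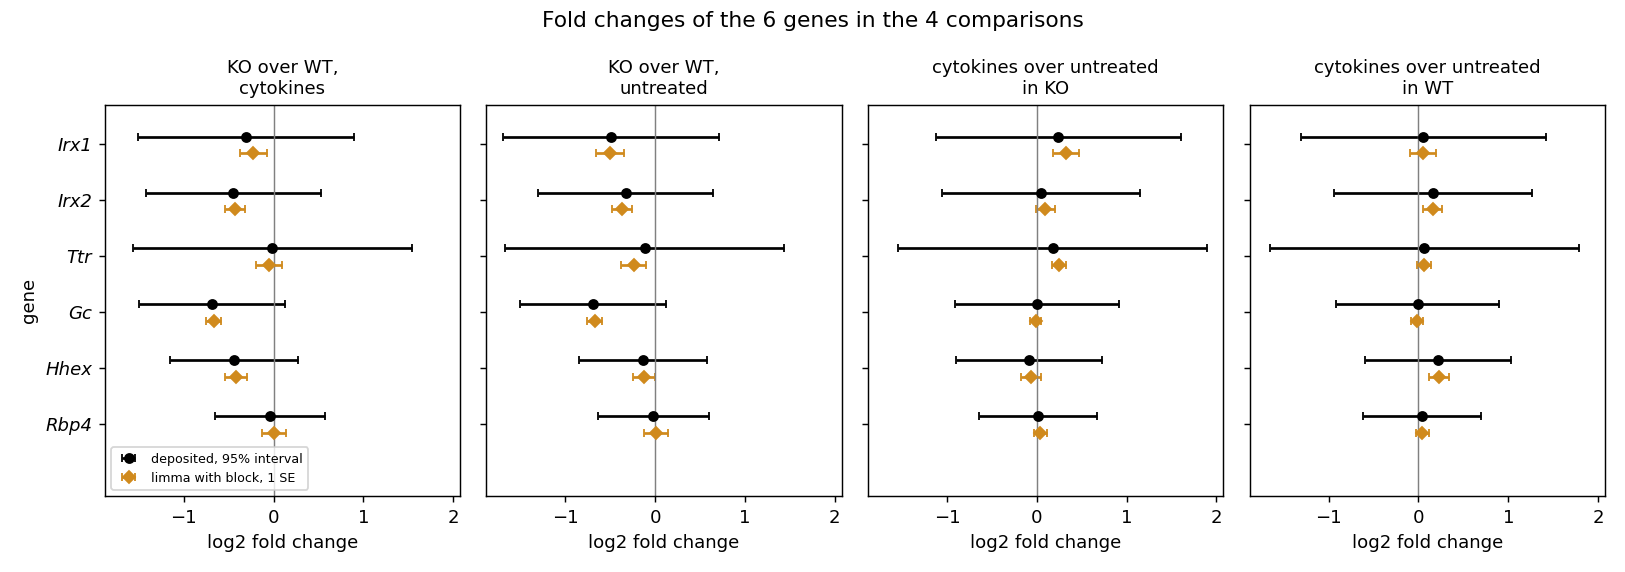
Log2 fold changes (horizontal axis) of the 6 genes in the 4 comparisons; black circles are the authors' values with 95% intervals and diamonds are limma on recovered reads with the replicate block, with bars of 1 SE. All black intervals include 0, and the diamonds of Gc lie at -0.67 in both genotype comparisons.

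The cytokine cocktail left the 6 genes with small differences. In the authors' deposited table none of the 6 was called in KO islets (0 of 6, where 0.0429% of all genes were called) or in WT islets (0 of 6, where 0.0122% were), no unadjusted p was below 0.05, and the fold changes lay between -0.09 and 0.24 on the log2 scale. Compared within each mouse, Gc with cytokines differed from Gc untreated by log2 values between -0.06 and 0.03, the narrowest span of the 6. Irx1 was higher with cytokines in 4 of 4 mice, by log2 values between 0.05 and 0.60, and so was Ttr, between 0.05 and 0.43; 12.4% of all genes were higher in all 4 mice. For both genes the large value was that of the KO male and the other 3 mice lay below 0.10. Irx2, Hhex and Rbp4 were higher in 3 of 4 mice. With the mouse as replicate block limma called none of the 6 in KO or WT islets (0.123% and 0.153% of all genes were called). Ttr in KO islets had the smallest adjusted p of the 6 in limma (0.403, with a log2 fold change of 0.25 and an SE of 0.079). The response in KO islets minus that in WT islets was called for none of the 6, nor for any gene (0 of 16333 by the deposited fold changes and 0 of 16317 by limma with the block); among the 6, Hhex had the largest difference, -0.31 (SE 0.59).

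The widest split of these genes was between the female and the male libraries. For all 6 genes the lowest of the 4 female libraries lay above the highest of the 4 male libraries, as for 8.21% of all genes. For 5 of the 6 the mean was also at least 1.5-fold higher in female libraries, as for 3.43% of all genes. The ratio of the female to the male mean was 2.36 for Irx1, 2.22 for Ttr, 2.01 for Irx2, 1.85 for Gc, 1.52 for Hhex and 1.49 for Rbp4. Among other genes of the same cells, the ratio was 1.46 for Slc7a2 and 1.75 for the hormone Sst. Not all separated the sexes: the ratio was 1.11 for Sstr2 and 1.14 for Smarca1, of alpha cells. It was 1.41 for Ffar4 and 1.32 for Spock3, of delta cells, and all of these overlapped between female and male libraries. Among beta cell regulators the ratio was 1.01 for Pdx1, 0.974 for Nkx6-1 and 1.32 for Mafa, and that of Ppy, the hormone of PP cells, was 0.944. For genes outside the alpha and delta cell lists, the ratio was 2.00 for Neurog3, the factor that starts endocrine differentiation, and 1.71 for the hormone Pyy. Neither overlapped between the sexes, and which islet cells these transcripts came from was not tested. Summed duct markers ran the other way, at 0.0746% to 0.0881% of reads in female and 0.113% to 0.132% in male libraries, and summed acinar markers were at 0.154% to 0.647% in female and 0.0283% to 0.162% in male libraries; the part of either in the values of the 6 genes was not tested. The female libraries come from 2 mice and the male libraries from 2 mice, each counted under both treatments, and sex is read from the data, so no test is given. In each group the 2 replicates are thus a female and a male, and the group SDs above hold this split.

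**Figure D4:**
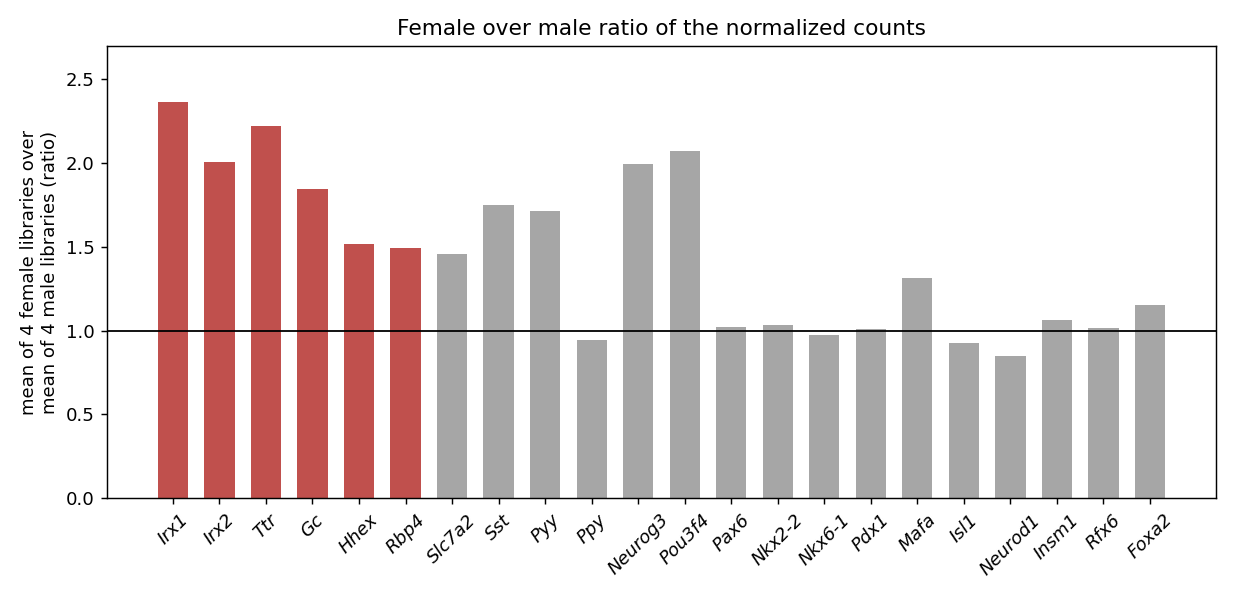
Ratio of the mean normalized count of the 4 female libraries to that of the 4 male libraries (vertical axis, starting at 0, with a line at 1). The 6 genes (red) stand between 1.49 for Rbp4 and 2.36 for Irx1, Slc7a2 and Sst stand at 1.46 and 1.75, Pyy and Neurog3 at 1.71 and 2.00 and the alpha cell factor Pou3f4 at 2.07, while Ppy and the other regulators shown lie between 0.846 for Neurod1 and 1.32 for Mafa.

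The members were also set against other transcripts of the same cells. Read against Gcg, the glucagon gene, whose libraries could not be separated, the deposited group mean of Gc was 0.321% of that of Gcg in KO and 0.528% in WT islets with cytokines, and 0.369% in KO and 0.576% in WT islets untreated. The other alpha cell genes were lower relative to Gcg in KO islets too: with cytokines Irx2 was at 0.132% in KO and 0.185% in WT, Irx1 at 0.0734% in KO and 0.0926% in WT, and Ttr at 3.46% in KO and 3.58% in WT, and the direction was the same untreated. These are 1 mean per group, with no spread. Per library, the ratio of Gc to Ttr was 0.0860 to 0.151 in the 4 KO and 0.147 to 0.159 in the 4 WT libraries, which overlapped. The ratio of Hhex to Sst was 0.0104 to 0.0117 in the 4 KO and 0.00863 to 0.0150 in the 4 WT libraries, and that of Rbp4 to Sst 0.0996 to 0.109 in KO and 0.0732 to 0.102 in WT libraries, so both overlapped as well. Within each pair matched by sex and treatment, Gc to Ttr was lower and Rbp4 to Sst higher in KO. Hhex to Sst was higher in KO except in the males with cytokines. Ttr and Sst were chosen for these ratios after the values were seen, and no test was made. Gcg and Sst were not called in any comparison of the authors' deposited table, with genotype log2 fold changes of 0.03 and -0.05 for Gcg (SE 0.57 each) and -0.29 and -0.45 for Sst (SE 0.51 each), with cytokines and untreated.

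Genes whose pattern over the 8 libraries was most like that of each member were taken by Pearson's r of log2(normalized count + 1) over 12354 genes with a mean of at least 100. These are descriptions over 8 points from 4 mice. Closest to Gc were Sall1, a zinc-finger transcription factor (r = 0.99), and Anpep, aminopeptidase N (r = 0.99). Both were lower in KO in all 4 matched pairs, as were 15% of all genes. Since they were picked for their likeness to Gc in these libraries, this is no separate evidence for the Gc difference. Sall1 had 190.3 and 86.6 normalized counts in KO libraries with cytokines, female before male, against 381 and 142 in WT. Anpep had 943 and 532 in KO against 1802 and 801 in WT. Closest to Irx1 were Rcn1 (r = 1.00), Mamld1 and Pappa2 (r = 0.99 each), and closest to Irx2 were Pappa2, a protease that cleaves IGF-binding proteins, Mamld1 and C8b (r = 0.99 each). The 2 Iroquois genes thus shared Pappa2 and Mamld1 among their 3 closest. Closest to Ttr were Sgce, Edn3 and Iffo2 (r = 0.99 each). Closest to Hhex were Gm15711, Ttll10 and Kcnj6 (r = 0.98 each), and closest to Rbp4 were Peg10, Klf13 and Higd1a (r = 0.98 each).

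Other genes of the same cells and pathways, from lists that were chosen with earlier results of these data known, are read against the shares of all genes that the authors' test called, which were 0.998% and 0.41% for genotype with cytokines and untreated, and 0.0429% and 0.0122% for cytokines in KO and WT islets. Of 13 alpha cell genes, the 4 members included, 0 were called by the authors' test in any of the 4 comparisons. Among them Sstr2, a somatostatin receptor, had the smallest p and stood higher in KO: 101 and 104 normalized counts in KO libraries with cytokines, female before male, against 73.8 and 44.2 in WT, with a deposited log2 fold change of 0.81 (SE 0.44, FDR 0.967), and 1.20 (SE 0.46, FDR 0.457) untreated. Of 6 measured delta cell genes 0 were called. The smallest p of the authors' test for genotype belonged to Ffar4, a fatty acid receptor (p = 0.219 untreated), followed by Hhex (p = 0.223 with cytokines). Ffar4 stood higher in KO (log2 fold change 0.25, SE 0.39 with cytokines, and 0.48, SE 0.39 untreated). Of 15 measured genes of 27 listed for the handling of retinol, vitamin D and thyroid hormone, the ligands of the 3 carriers, 0 were called. The 2 with the smallest p were Aldh1a2, which makes retinoic acid (log2 fold change 0.62, SE 1.02 with cytokines and 1.78, SE 1.06 untreated), and Rdh10, a retinol dehydrogenase (0.30, SE 0.20 and 0.25, SE 0.20). Of 18 measured regulators of endocrine fate 1 was called: Insm1, a zinc-finger factor of endocrine cells, fell in KO islets by 0.45 on the log2 scale with cytokines (SE 0.11, FDR 0.0126) and by 0.56 untreated (SE 0.11, FDR 0.000910). Of 8 hormone genes 1 was called: Ppy fell with cytokines in KO islets by 0.84 (SE 0.16, FDR 0.000475), where it had 19795 and 14842 normalized counts with cytokines, against 31760.1 and 29544 untreated.

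Cell types outside the endocrine islet also differed between the genotypes. Summed endothelial markers were at 0.0260% to 0.0342% of reads in the 4 KO libraries and 0.0421% to 0.0567% in the 4 WT libraries, while summed macrophage markers were at 0.0151% to 0.0185% in KO and 0.00963% to 0.0128% in WT libraries. Summed lymphocyte markers were at 0.00172% to 0.00658% in KO and 0.000803% to 0.00107% in WT libraries. Summed acinar and stromal markers overlapped between the genotypes but were higher in KO in each pair matched by sex and treatment. Acinar markers were at 0.113% to 0.647% in KO and 0.0283% to 0.330% in WT libraries. Stromal markers were at 0.0256% to 0.0707% in KO and 0.0112% to 0.0574% in WT libraries. The part of these cells in the values of Gc was not tested.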

How the data were processed

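RNA of isolated islets was sequenced in 8 libraries, 2 for each combination of genotype and treatment. Per the submitters' processing notes HISAT2, HTSeq, DESeq2 and the build GRCm38 were used, without versions or roles; strandedness is not recorded there, and no annotated gene overlaps the 6 described. The authors deposited 4 tables of comparisons, which name the second genotype Mut, taken for wild type as the one remaining. The signal columns that the authors deposited hold means of read counts normalized by size factors, over a group or all libraries. The deposited log2 fold change, its score (a Wald statistic), p-value and FDR were used as given, and the SE is the log2 fold change over the score. The linear fold in the authors' tables was not used. No gene had a deposited overall mean below 23.2.

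Whole reads were recovered from the deposited group means as the 2 whole numbers whose scaled sum gives each mean, which also give the overall mean (largest relative residual 5.7e-15). This succeeded for 16317 of 16333 genes (99.9%); Gcg, Ins1 and Ins2 were among the 16 others. In simulated tables all 2392 of 2392 genes were recovered exactly. The libraries carry no names, so those of a mouse were linked by sex from 4 Y-linked genes.

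The test taken from the authors was an FDR below 0.05 in their tables, over all genes. As alternatives limma 3.58.1 (R 4.3.3), with Benjamini-Hochberg adjustment, was run on log2(normalized count + 5) of the recovered reads, with and without a replicate block, which was the mouse for cytokine and the sex for genotype comparisons. The design text says that islets of each mouse were split, and deviations from group means of the libraries so linked correlated (r = 0.74 in both genotypes, 13774 autosomal genes). Between genotypes same-sex libraries had r of 0.47 and 0.48. In simulated data for the untreated genotype comparison the fits with and without the block each recovered 190 of 200 changed genes, with 7 false calls (16317 genes). These data held no difference between sexes or mice. They therefore check that the fits run properly, and cannot tell which fit suits the real libraries or how often it calls falsely there. The other alternatives were a pseudocount of 0.5, scaling to total reads, a mean of at least 50, an FDR of 0.1 and leaving out each library. Positions are those of GENCODE M21. The 6 genes and all lists were chosen with earlier results of these data known; genes named beside them are the 3 most correlated with each, the called genes of each list or else the 2 with the smallest p in the genotype comparisons, and some genes that these rules take are not reported here. Nothing says that the mice were littermates, and all p-values rest on these 4 mice. With the mouse as block, the cytokine p-values measure the spread of the response between mice and not that of their levels.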

Additional observations from a re-analysis of the deposited data

Results flagged for a closer look

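For 3 of the 6 genes a difference had opposite signs in the female and the male mice, under each treatment or in each genotype. How many of all genes do so was not counted, so this is a description only. Ttr was higher in the KO than in the WT female, by log2 values of 0.057 with cytokines and 0.067 untreated, and lower in the KO than in the WT male, by -0.16 and -0.55. Rbp4 went the other way, with log2 KO over WT values of -0.27 with cytokines and -0.13 untreated in the females, and 0.28 and 0.15 in the males. Gc with cytokines over Gc untreated was 0.034 in the KO female and 0.012 in the WT female, and -0.061 in the KO male and -0.053 in the WT male. These Gc differences are small, on 592 to 1389 reads per library, and their signs may not be meaningful. With 1 mouse of each sex per genotype the difference between the sexes was not tested.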

How the results depend on the processing

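No member was called by the authors' test in any comparison, and 1, Gc, was called in each genotype comparison under the replicate block, whether on all 8 libraries (1 member with cytokines and 1 untreated) or on the 4 libraries of the comparison alone (1 and 1); with 1 library left out the count ranged from 0 to 1 in both. The fits on 4 libraries and those without 1 library under the block were chosen after seeing the data. The block changed no other call of a member. Over all genes the count with cytokines was 163 by the authors' test, 629 with the block and 936 on 4 libraries, 2 without the block, 2 with a pseudocount of 0.5, 2 with total reads and 103 after dropping means below 50; untreated it was 67, 349, 751, 2, 2, 3 and 54. In KO and WT islets the cytokine counts were 7 and 2 by the authors' test, 20 and 25 with the block and 0 and 0 without it. An FDR of 0.1 in the authors' test called none of the 6. Leaving out 1 library without the block sets 1 sex against both, and the genotype fold changes of the 6 genes then changed sign in some fits, except those of Gc (-1.12 to -0.23 untreated, -1.14 to -0.19 with cytokines) and of Hhex with cytokines. For Rbp4 limma on all libraries, with or without the block, gave a fold change of 0.01 in both genotype comparisons against -0.04 and -0.02 by the authors, and scaled to total reads -0.02 with cytokines and 0.0027 untreated. Gcg and the insulin genes could not be separated by library.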
